A study of Mus musculus with 6 samples.

Results

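The genes of the calcium release machinery of skeletal muscle were followed by PRO-seq in proliferating muscle stem cells (MuSCs) with and without the histone methyltransferase gene Kmt5b. The members are 10 genes taken by symbol from the 14546 genes listed: the release channels Ryr1 and Ryr3, the junction proteins Jph1, Jph2 and Stac3, the calcium pumps Atp2a1 and Atp2a2, and the luminal store and anchor proteins Casq1, Casq2 and Trdn. All 10 were listed and all 10 passed the filter on low values. PRO-seq maps engaged RNA polymerases, as biotin-labelled nucleotides are added to the nascent RNA in isolated nuclei and the labelled RNA is sequenced. Each gene has a value for its TSS region, the first 400 nt of 1 transcript, and a value for the gene body that follows. The study normalized both as TPM, for depth and length. As all TSS regions have the same length, their values are written here as RPM (reads scaled for depth alone). TSS regions and gene bodies were scaled separately within each library. The Ctrl group holds 3 libraries of genotype Pax7CreERT/Suv4-20h1WT and the Kmt5b sKO group 3 libraries of genotype Pax7CreERT/Suv4-20h1KO, where Suv4-20h1 is another name of Kmt5b. Both groups were given tamoxifen and carry Pax7CreERT, an inducible Cre recombinase driven from the Pax7 locus, which is active in cells that express Pax7, so that a cell in which it failed to recombine would keep Kmt5b. The mice were adults on a C57BL/6 background, and the MuSCs were purified from limb and trunk muscles with magnetic beads and expanded in culture. The comparison asked whether loss of Kmt5b changed nascent transcription of these genes at their start, along their bodies, or in the ratio of both.

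In skeletal muscle, depolarisation of the T-tubule membrane moves the voltage sensor, which opens RYR1 channels in the facing membrane of the sarcoplasmic reticulum by direct contact. Junctophilins tether both membranes, calsequestrins buffer calcium inside the store next to the channel, triadin anchors them there, and SERCA pumps return calcium to the store so that the fibre relaxes. The machinery is best known from fibres, and its genes are switched on as myoblasts differentiate, under factors that include MYOD, myogenin and MEF2.

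The starts of the 3 members that passed the test in the TSS region are shown first, as the values below were counted just downstream of them. The sequences are the 250 nt before the RefSeq start site on GRCm38.p6, 5′ to 3′ on the gene's strand, and were held by the promoter table for 5 of the 10 members (Ryr1, Jph2, Atp2a1, Casq1 and Casq2). Capitals mark a match to CAGCTG, the E-box form bound by myogenic factors, or to the MEF2 site, each searched on both strands. They lie at chr7:29125152-29125401 on the minus strand for Ryr1, at chr1:172219896-172220145 on the minus strand for Casq1 and at chr3:102086165-102086414 on the plus strand for Casq2.
Ryr1: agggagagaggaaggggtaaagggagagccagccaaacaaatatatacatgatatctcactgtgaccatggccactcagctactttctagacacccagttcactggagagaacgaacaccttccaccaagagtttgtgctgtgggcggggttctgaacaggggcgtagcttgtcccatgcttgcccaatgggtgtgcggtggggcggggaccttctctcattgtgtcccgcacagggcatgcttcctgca
Casq1: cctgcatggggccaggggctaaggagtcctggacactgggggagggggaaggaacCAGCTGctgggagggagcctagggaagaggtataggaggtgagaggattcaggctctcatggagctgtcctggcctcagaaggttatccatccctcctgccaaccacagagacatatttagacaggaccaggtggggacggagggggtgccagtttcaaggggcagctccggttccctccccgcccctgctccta
Casq2: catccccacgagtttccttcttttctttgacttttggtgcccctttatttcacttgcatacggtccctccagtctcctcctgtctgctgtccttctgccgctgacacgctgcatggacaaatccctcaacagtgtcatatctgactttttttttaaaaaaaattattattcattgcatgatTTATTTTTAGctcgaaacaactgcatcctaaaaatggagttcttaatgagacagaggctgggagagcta
Of these, Casq1 holds a CAGCTG from 195 to 190 nt upstream, Casq2 holds a MEF2 site from 69 to 60 nt upstream, and Ryr1 holds neither. CAGCTG was also present in 2 members not printed, Jph2 from 9 to 4 nt and Atp2a1 from 55 to 50 nt upstream. Among 32851 promoters of 27025 genes cut to the same window, 13.0% hold CAGCTG, 66.2% the general E-box CANNTG, of which CAGCTG is one form, and 2.92% the MEF2 site. CANNTG was found in 4 of the 5 members, with Ryr1 as the one without. CATTCC (12.6% of all promoters), TATAAA (12.4%) and the CArG box (1.47%) were found in none of the 5. A match says only that these letters are in the window. The RefSeq start is the listed start for Ryr1, Jph2 and Casq2, while the listed start lies 35 nt upstream of it for Atp2a1 and 27 nt downstream of it for Casq1.

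The listed genes held between 926904 and 3246052 reads in TSS regions and between 7425424 and 16249145 reads in gene bodies per library, recovered from the values. Of the low values checked, 100% came out as whole reads. Gene bodies were checked only under 2000 nt. All members' bodies are longer, so their read counts are approximate. Behind the members' gene body values lay 82 to 20081 reads, and behind their TSS values 0 to 1267 reads. Kmt5b itself had gene body values from 30.6 to 38.5 TPM for Ctrl, against 35.0 to 42.6 TPM for Kmt5b sKO. These overlapped, whereas its TSS values of 93.7, 87.3 and 101.5 RPM for Ctrl were all below the 120.0, 107.0 and 113.2 RPM for Kmt5b sKO (limma, adjusted p = 0.72). As the position of the deleted part is not given in the sources used here, they do not check the genotype. Of the muscle stem cell and myoblast markers, Pax7 lay at 25.5 to 53.7 TPM, Myf5 at 45.9 to 91.2 TPM and Myod1 at 855 to 1328 TPM over the 6 libraries. Myog, a marker of differentiating myocytes, lay at 382 to 1105 TPM, and the full lists are compared below. Ptprc, Adgre1 and Csf1r of blood cells, Kdr and Emcn of endothelium, and Dcn and Lum of fibroblasts were not listed. The summed fibroblast markers lay between 4.86 and 9.78 TPM, the mural ones between 7.68 and 26.0 TPM and those of heart muscle between 1.19 and 3.41 TPM. The 2 listed blood cell markers, led by Cd68, which other cells also transcribe, summed to 214 to 402 TPM in Ctrl and to 320 to 326 TPM in Kmt5b sKO libraries. The 3 listed endothelial markers summed to 2.50 to 4.23 TPM in Ctrl and to 4.38 to 5.05 TPM in Kmt5b sKO libraries, without overlap, and the 1 that passed the filter was not called. The 3 Schwann cell markers summed to 8.75 to 9.90 TPM in Ctrl and to 14.8 to 23.0 TPM in Kmt5b sKO libraries, with Sox10 called. The share of these cells in the results below was not tested. Values are relative to the reads counted in the transcript regions of each library, for TSS regions and gene bodies separately. All changes below are on that scale. When reads were scaled to the uniquely mapped reads of each library instead, all tested genes had a median log2 fold change of -1.05 (TSS region) and -1.06 (gene body), and the members' medians lay 0.80 and 0.53 above it, with 9 of 10 and 10 of 10 members higher than that median. Inside the gene bodies of Ryr1, Atp2a2, Casq2 and Trdn the annotation places other genes on the same strand, whose reads cannot be told apart, whereas no other gene of that strand overlaps a TSS region.

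Except for Ryr3, which was near the lower limit, the members carried polymerase at readily measured levels in the Ctrl MuSCs. In the gene body, the Ctrl means ran in the order Jph2 (180 TPM ± 45.1), Atp2a1 (86.1 ± 31.3), Stac3 (76.3 ± 21.2), Atp2a2 (73.5 ± 2.76), Ryr1 (68.3 ± 20.5), Casq2 (50.6 ± 19.5), Jph1 (21.9 ± 5.56), Casq1 (11.4 ± 4.80), Trdn (6.45 ± 2.07) and Ryr3 (0.673 ± 0.280), each as SD with n = 3. Neighbours from Atp2a1 to Casq2 lay within 1 SD of each other, whereas Jph2 above and Ryr3 below stood apart in every library. Jph2 was at the 98.2th percentile of the genes tested and Ryr3 at the 2.19th.

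**Figure D1:**
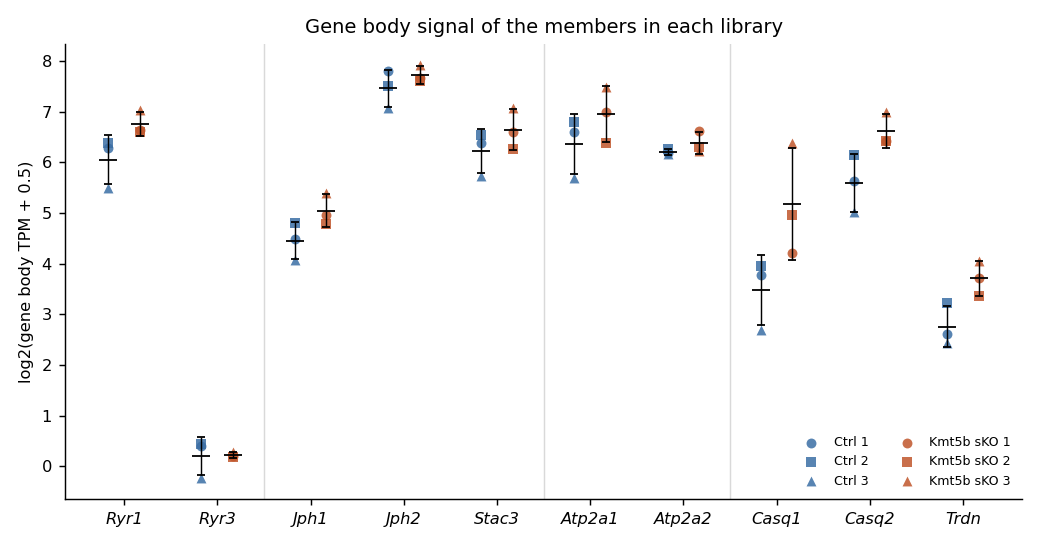
Gene body signal of each member in each library, as log2(TPM + 0.5). Circles, squares and triangles are replicates 1, 2 and 3 of Ctrl (blue) and Kmt5b sKO (orange), black bars are the mean ± SD of the log2 values (n = 3), and grey lines separate the role groups. Ctrl replicate 3 is the lowest library in 10 of 10 members.

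RYR1 is the release channel of skeletal muscle, and its gene rose in the TSS region of Kmt5b sKO MuSCs. Ryr1 (ENSMUSG00000030592) lies on the minus strand at chr7:29003344-29125151, and its listed transcript has 106 exons, with 12.5% of the 121407 nt of gene body exonic. The TSS values were 76.3, 115 and 69.5 RPM for Ctrl replicates 1 to 3, against 134, 147 and 289 RPM for the same numbers of Kmt5b sKO. Every Kmt5b sKO library was above every Ctrl library, and the highest value was in Kmt5b sKO replicate 3. The log2 fold change was 1.07 ± 0.27 (SE; limma, adjusted p = 0.0775), a call that was lost when any library other than Ctrl replicate 2 was left out. In bulk libraries, a larger share of cells that transcribe a gene and more polymerases per cell cannot be told apart. Gene body values were 77.1, 83.1 and 44.9 TPM against 99.9, 96.6 and 130 TPM. The groups did not overlap here either, but the log2 fold change of 0.71 ± 0.25 did not pass the test (limma, adjusted p = 0.23).

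Ryr3 encodes a second release channel, found at low level in some muscles and during development. Ryr3 (ENSMUSG00000057378) spans chr2:112631355-113217087 on the minus strand, the longest of the members. Its TSS region held at most 2 reads in each library, so that no fold change and no pausing index are given. The gene body, at 245 to 702 reads per library, gave 0.82, 0.85 and 0.35 TPM for Ctrl against 0.65, 0.64 and 0.72 TPM for Kmt5b sKO. All 3 Kmt5b sKO values lay within the Ctrl range, with a log2 fold change of 0.03 (95% interval -0.60 to 0.65). The ratio of Ryr1 to Ryr3 in the gene body was 94.0, 97.7 and 128 for Ctrl against 154, 151 and 181 for Kmt5b sKO, without overlap. This ratio was calculated within a library, so a scaling of whole libraries does not move it.

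Among the junction proteins none was called. JPH1 and JPH2 bridge the T-tubule and the store, and STAC3 links the voltage sensor to release. Jph1 (chr1:16994938-17097889, minus strand) had 33.9, 40.2 and 23.9 RPM in the TSS region of Ctrl and 29.8, 39.0 and 52.4 RPM in Kmt5b sKO, which overlapped. Jph2 (chr2:163336242-163397993, minus strand) had 45.0, 43.7 and 30.3 RPM against 61.6, 45.6 and 85.6 RPM, and Kmt5b sKO replicate 2 exceeded the highest Ctrl library only narrowly. Stac3 (chr10:127501686-127508823, plus strand) had 25.9, 39.1 and 46.2 RPM against 51.5, 53.5 and 75.4 RPM, again without overlap. The log2 fold changes were 0.30, 0.66 and 0.71, with limma adjusted p values of 0.79, 0.31 and 0.26. All 3 genes overlapped between the groups in the gene body. Jph1 had 22.1, 27.4 and 16.3 TPM against 30.6, 26.9 and 41.8 TPM. For Jph2 the values were 224, 181 and 134 TPM against 202, 194 and 244 TPM. Stac3 ran at 83.3, 93.1 and 52.6 TPM against 96.8, 76.1 and 134 TPM. Their log2 fold changes were 0.59, 0.27 and 0.42, with limma adjusted p values from 0.29 to 0.62. Jph2 exceeded Jph1 in the gene body in all 6 libraries, by 5.82 to 10.1 times, and the ratios of both groups overlapped.

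The pumps were not called in either region. Atp2a1 encodes SERCA1, the pump of fast fibres, and Atp2a2 encodes SERCA2, whose isoforms serve slow and cardiac muscle and most other cells. Atp2a1 (chr7:126445858-126463108, minus strand) spread widely in the TSS region, with 27.4, 56.3 and 7.20 RPM in Ctrl against 42.6, 21.1 and 61.2 RPM in Kmt5b sKO. The gene body values were 96.0, 111 and 51.1 TPM against 128, 82.6 and 178 TPM. The groups overlapped in both regions, with log2 fold changes of 0.75 ± 0.50 and 0.59 ± 0.36 (SE), and the first was -0.04 without Ctrl replicate 3. Atp2a2 (chr5:122456340-122502225, minus strand) was the only member with a lower mean in Kmt5b sKO TSS regions, at 174, 156 and 240 RPM against 145, 164 and 138 RPM. These overlapped too (log2 fold change -0.33 ± 0.22, SE; limma adjusted p = 0.66). The gene body difference had the smallest error of the members, with 72.0, 76.7 and 71.8 TPM against 98.5, 78.3 and 74.8 TPM. The log2 fold change was 0.18, with a 95% interval from -0.15 to 0.51. The ratio of Atp2a1 to Atp2a2 was 1.33, 1.45 and 0.712 for Ctrl against 1.29, 1.05 and 2.38 for Kmt5b sKO, which overlapped.

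The calsequestrin genes rose in the TSS region, and the triadin gene did not pass the test. Casq1 encodes the calsequestrin of fast fibres. Casq1 (ENSMUSG00000007122; chr1:172209894-172219868, minus strand) had 10.7, 11.5 and 2.27 RPM in Ctrl TSS regions and 21.3, 23.1 and 92.5 RPM in those of Kmt5b sKO. The groups were apart, with Kmt5b sKO replicate 3 far above and Ctrl replicate 3 far below the other libraries of their groups. The log2 fold change was 2.34 ± 0.53 (SE; limma, adjusted p = 0.0540). The call was lost without Ctrl replicate 1 and without Kmt5b sKO replicate 3. The values rest on 12 to 201 reads per library, and DESeq2 on these reads did not call the gene. Its gene body gave 13.3, 15.1 and 5.99 TPM against 18.0, 30.6 and 82.9 TPM. They did not overlap, and the log2 fold change of 1.70 ± 0.56, the largest of the members, did not pass the test (limma, adjusted p = 0.20). Without Kmt5b sKO replicate 3 it was 1.11.

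Casq2 encodes the calsequestrin of heart and slow fibres. Casq2 (ENSMUSG00000027861; chr3:102086415-102146514, plus strand) had 31.2, 51.1 and 50.4 RPM in Ctrl against 104, 78.6 and 99.8 RPM in Kmt5b sKO TSS regions. This was the tightest of the 3 calls, as all Kmt5b sKO libraries lay well above all Ctrl libraries (log2 fold change 1.11 ± 0.24, SE; limma, adjusted p = 0.0454). It was lost without Ctrl replicate 1 and without Kmt5b sKO replicate 1 or 3. The gene body had 49.2, 70.7 and 31.8 TPM against 85.6, 85.1 and 128 TPM. These were also apart, with a log2 fold change of 1.02 ± 0.30 that missed the threshold (limma, adjusted p = 0.16). Casq2 exceeded Casq1 in the gene body of all 6 libraries, by 3.71, 4.70 and 5.31 times in Ctrl and by 4.75, 2.78 and 1.54 times in Kmt5b sKO. The lowest ratios were in Kmt5b sKO replicates 2 and 3, but the first replicate lay within the Ctrl range.

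Trdn encodes triadin, which anchors calsequestrin to the release channel. Trdn (ENSMUSG00000019787; chr10:33083483-33476709, plus strand) had 7.26, 6.89 and 3.79 RPM in the Ctrl TSS regions and 14.4, 7.92 and 29.0 RPM in those of Kmt5b sKO. Its gene body had 5.62, 8.80 and 4.92 TPM against 12.6, 9.83 and 16.1 TPM. The groups were apart in both regions, with the nearest values close to each other. The log2 fold changes were 1.30 ± 0.44 and 0.96 ± 0.26 (SE), neither past the threshold (limma, adjusted p = 0.20 and 0.14). The TSS region held 12 to 63 reads and the gene body 2529 to 6018 reads per library.

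**Figure D2:**
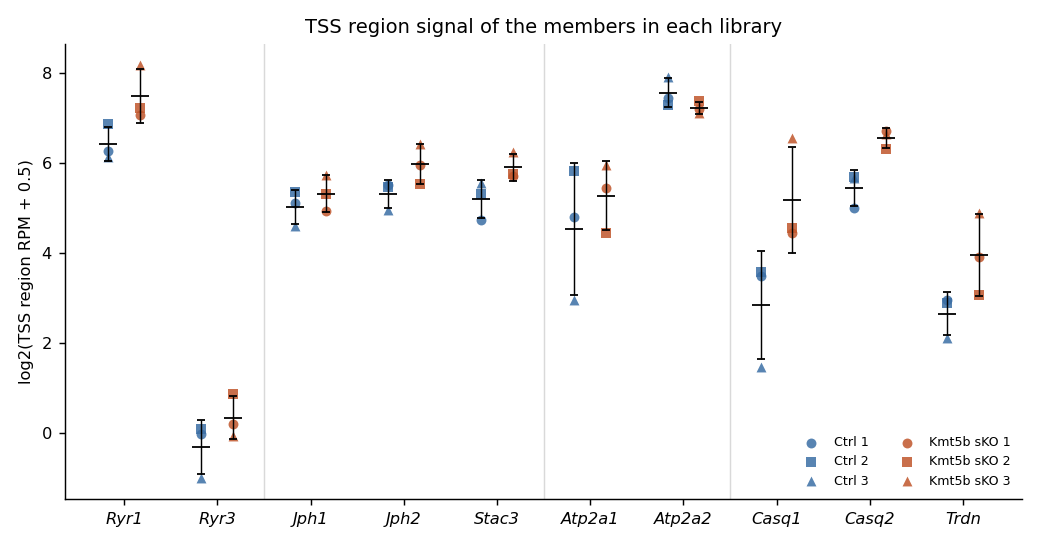
TSS region signal of each member in each library, as log2(RPM + 0.5), with symbols as in the plot of gene body signal. Ryr1, Jph2, Stac3, Casq1, Casq2 and Trdn show no overlap between the genotypes, and Ryr3 rests on at most 2 reads per library.

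Over the members, 3 of 10 (Ryr1, Casq1 and Casq2) were called in the TSS region, all higher in Kmt5b sKO, against 1.66% of all genes tested in either direction and 0.932% called higher. An unadjusted p under 0.05 was reached by 6 of 10, against 11.0% of all genes. In 6 of 10 every Kmt5b sKO library was above every Ctrl library, against 10.2%. The median log2 fold change of the members was 0.73, and 0.75 without Ryr3, against 0.08 over all genes. In the gene body 0 of 10 were called by limma, against 2.99% in either direction and 1.61% higher, while 5 of 10 had an unadjusted p under 0.05 (15.9% of all genes) and 4 of 10 did not overlap, all with Kmt5b sKO above Ctrl (12.0%). On the recovered reads edgeR called 2 (Casq2 and Trdn; 6.01% of all genes) and DESeq2 called 4 (Ryr1, Casq1, Casq2 and Trdn; 10.4%). The median log2 fold change in the gene body was 0.59, against 0.02 over all genes, with all 10 above 0 (53.8% of all genes), Ryr3 only narrowly. It was 0.33 without Ctrl replicate 3 and 0.37 without Kmt5b sKO replicate 3. With 1 of 3 libraries left out, the TSS calls, 207 over all genes, depended on which library it was. Without Ctrl replicate 1, 0 of 10 members and 1 of 12451 genes were called. The counts were 0 of 10 and 46 of 12451 without Kmt5b sKO replicate 3, and 1 of 10 and 16 of 12451 without Kmt5b sKO replicate 1. Without Kmt5b sKO replicate 2 they were 2 of 10 and 132 of 12451. More genes were called without Ctrl replicate 2 (3 of 10 and 408 of 12451) and without Ctrl replicate 3 (2 of 10 and 270 of 12451). With no filter on low values, and with no trend in the variance prior, no gene of the table was called there.

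**Figure D3:**
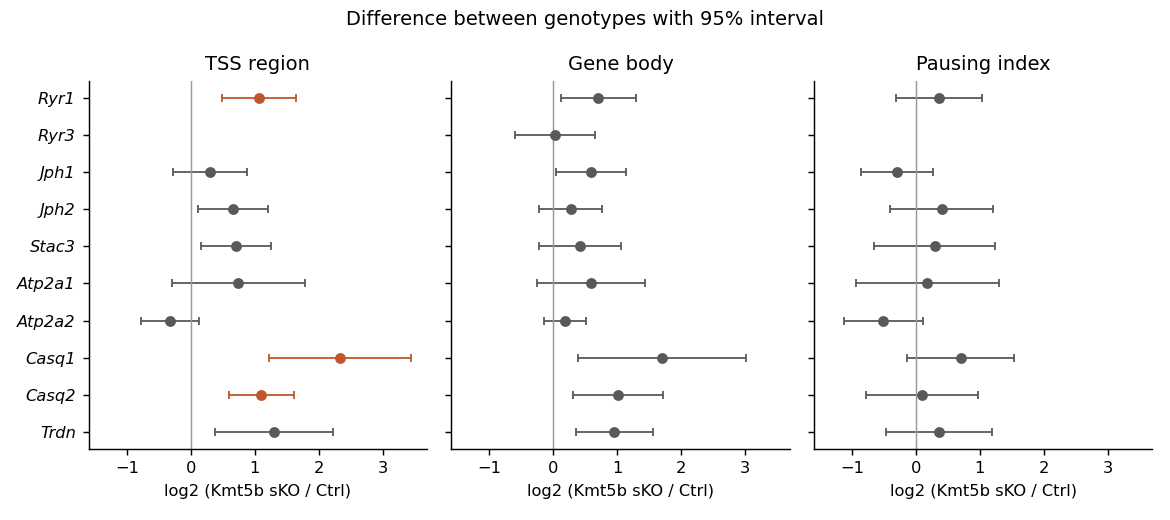
Log2 fold change of Kmt5b sKO over Ctrl for each member in the TSS region, the gene body and the pausing index, with the 95% interval from limma (n = 3 per group). Orange marks an adjusted p under 0.1, which only Ryr1, Casq1 and Casq2 reached and only in the TSS region, and Ryr3 is drawn for the gene body alone.

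The pausing index, the ratio of TSS to gene body signal, measures how far polymerase is held near the start. Its size carries the units of both values, which were scaled separately for TSS regions and gene bodies. A pausing difference shared by all genes of a library is thus removed by the scaling and cannot be seen here. On this scale the median index over all genes tested lay between 1.47 and 1.61 in the 6 libraries. Jph2 had the lowest index in 4 of the 6 libraries, with Atp2a1 below it in both replicates 3, at 0.201, 0.241 and 0.227 in Ctrl against 0.306, 0.235 and 0.351 in Kmt5b sKO. Atp2a2 had the highest in 5 of 6, with Ryr1 above it in Kmt5b sKO replicate 3, at 2.41, 2.04 and 3.34 against 1.47, 2.10 and 1.84. The calsequestrin genes lay between, with 0.802, 0.764 and 0.379 against 1.18, 0.755 and 1.12 for Casq1, and 0.634, 0.723 and 1.58 against 1.22, 0.923 and 0.782 for Casq2. Both overlapped between the groups. None of the 9 members tested was called (0% of 11698 genes), and 0 of 9 had an unadjusted p under 0.05 (3.86%). In 0 of 9 every Kmt5b sKO library was above every Ctrl library (5.93%), and in 1 of 9, Jph1, every one was below (3.09%), with 1.54, 1.47 and 1.47 in Ctrl against 0.976, 1.45 and 1.25 in Kmt5b sKO. Log2 fold changes ran from -0.51 for Atp2a2 to 0.70 for Casq1, with 95% intervals of -1.12 to 0.10 and -0.14 to 1.54. The transcript of each gene was chosen by the authors for the largest TSS value, which bears on the level of the index.

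The members moved together over the libraries. In the gene body Ctrl replicate 3 was the lowest library in 10 of 10 members and Kmt5b sKO replicate 3 the highest in 8 of 10, with Ryr3 and Atp2a2 as the exceptions. In the TSS region, with Ryr3 left out, these counts were 6 of 9 and 7 of 9. The share of all genes with these orders is not given here. On the log2 scale, the median of all genes tested was also lowest in Ctrl replicate 3, at 3.89 (gene body) and 4.38 (TSS region). It was not highest in Kmt5b sKO replicate 3 in either region. The mean log2(TPM + 0.5) of the members was 5.02, 5.21 and 4.42 for the Ctrl libraries against 5.41, 5.29 and 5.89 for the Kmt5b sKO libraries, while the median of all genes tested lay between 3.89 and 4.10. The 12 markers of differentiating myocytes, none of them a member, gave 7.58, 7.96 and 6.95 against 8.23, 8.03 and 8.52, which is the same order of the 6 libraries. Their summed level was 2460 to 4657 TPM in Ctrl and 5003 to 6690 TPM in Kmt5b sKO. None of the 12 was at 0, 11 of 12 had a log2 fold change above 0 and 2 were called (Tnnc1 and Myl1), with a median of 0.84. Actc1, the most highly transcribed of them, had 635, 917 and 363 TPM against 942, 845 and 1140 TPM, and Myog, the myogenin gene, 720, 925 and 382 TPM against 907, 790 and 1105 TPM. The 8 markers of mature fibres, of which Pvalb is also in the wider list below, summed to 208 to 425 TPM in Ctrl and 423 to 862 TPM in Kmt5b sKO, led by Myh1 with 97.2, 187 and 52.4 against 232, 161 and 407 TPM. The 8 proliferation markers went the other way, with sums of 355 to 474 TPM in Ctrl and 201 to 253 TPM in Kmt5b sKO and 5 of 8 called (Top2a, Bub1, Cdk1, Mcm5 and Pcna). The 10 muscle stem cell and myoblast markers overlapped, at 2065 to 2699 TPM against 2577 to 3327 TPM. Their mean log2 value was also lowest in Ctrl replicate 3 (6.78) and highest in Kmt5b sKO replicate 3 (7.11). That of the mature fibre markers had the same lowest and highest libraries (3.45 and 5.34). The part of the cells' differentiation or cycling in the members' values was not tested.

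**Figure D4:**
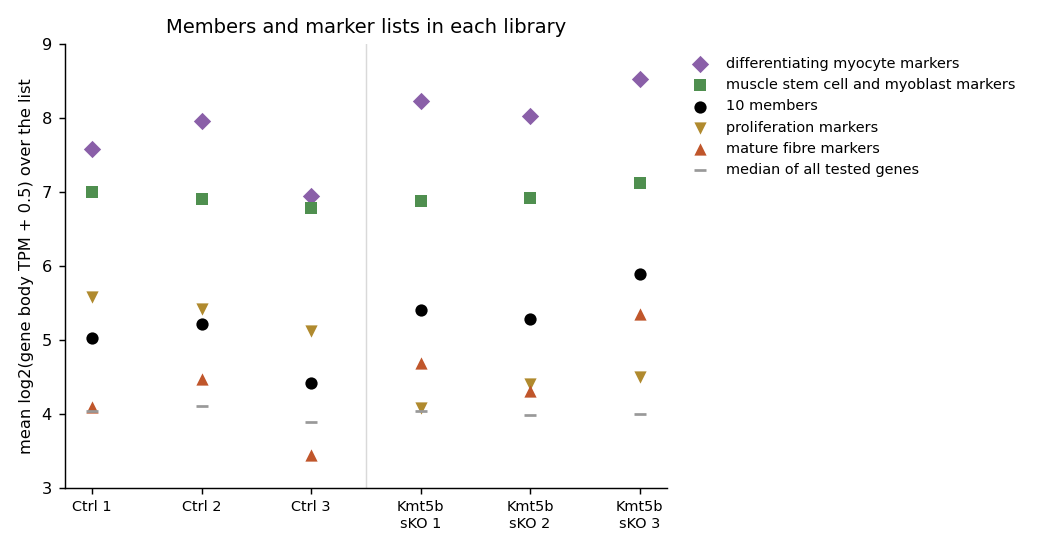
Mean log2(gene body TPM + 0.5) of the 10 members (black circles) and of 4 marker lists in each library, with the median of all tested genes as a grey dash. The members and all lists of muscle markers are lowest in Ctrl replicate 3 and highest in Kmt5b sKO replicate 3. The proliferation markers are lower in all Kmt5b sKO than in all Ctrl libraries.

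The wider calcium handling list held 46 other genes, of which 42 were listed and 39 tested. In the TSS region 4 of 39 were called higher in Kmt5b sKO (0.932% of all genes) and 0 lower, and in the gene body 0 were called in either direction. These 4 calls were lost with no filter and with no trend, as were those of every other gene, and without Ctrl replicate 1 the whole table had 1 call. The median log2 fold change of the list was 0.30 (TSS region) and 0.29 (gene body), below those of the members and above those of all genes. In each region 27 of 39 were above 0, against 58.2% (TSS region) and 53.8% (gene body) of all genes. Of the voltage sensor and T-tubule genes, 7 of 7 had a log2 fold change above 0 in both regions, with medians of 0.57 and 0.60, and 2 were called in the TSS region. With reads scaled to the uniquely mapped reads, 7 of 7 lay above the median of all genes in both regions. Cav3, the caveolin of the muscle membrane, had 51.1, 70.1 and 65.5 RPM in Ctrl TSS regions and 139, 127 and 177 RPM in those of Kmt5b sKO (limma, adjusted p = 0.0289). Dysf, which encodes the membrane repair protein dysferlin, had 18.2, 16.7 and 12.9 RPM against 42.6, 39.0 and 47.8 RPM (limma, adjusted p = 0.0289). In both genes the groups were well apart, and Cacng1, the voltage sensor subunit gene with the highest gene body level of the group, had 208 TPM ± 47.5 against 310.2 TPM ± 37.1 (SD, n = 3), not called.

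The other 2 calls lay among the luminal proteins of the store. Srl, the gene of sarcalumenin, had 67.5, 135 and 76.0 RPM in Ctrl TSS regions and 201, 149 and 223 RPM in those of Kmt5b sKO (limma, adjusted p = 0.0610). Hrc, the gene of a histidine-rich calcium binding protein, had 22.8, 40.2 and 9.85 RPM against 52.5, 42.9 and 108 RPM (limma, adjusted p = 0.0738). Neither overlapped, but Kmt5b sKO replicate 2 lay close to Ctrl replicate 2 in both. Calr, the gene of the luminal chaperone calreticulin, had the highest gene body mean of the list at 342 TPM ± 128 in Ctrl against 207 TPM ± 72.4 in Kmt5b sKO (SD, n = 3; log2 fold change -0.73, limma adjusted p = 0.38). In the remaining groups none was called, and their counts above 0 in the gene body stand beside 53.8% of all genes. Of the release complex partners, 8 of 10 were above 0 in the gene body with a median of 0.25, led in level by Tmem38a, a cation channel of the store, at 73.3 TPM ± 16.3 against 120 TPM ± 32.0. Of the pump partners and other pumps 4 of 6 were above 0, and Atp2b1, a calcium pump of the cell surface, had 40.5 TPM ± 3.64 against 46.4 TPM ± 1.94. Of the store-operated entry and IP3 receptor genes 6 of 8 were above 0 with a median of 0.26, and Orai2, an entry channel gene, had 66.4 TPM ± 29.0 against 86.9 TPM ± 12.9. The cytosolic calcium binders had 0 of 3 above 0, and Calm2, a calmodulin gene, had 105 TPM ± 5.26 against 88.0 TPM ± 12.0.

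**Figure D5:**
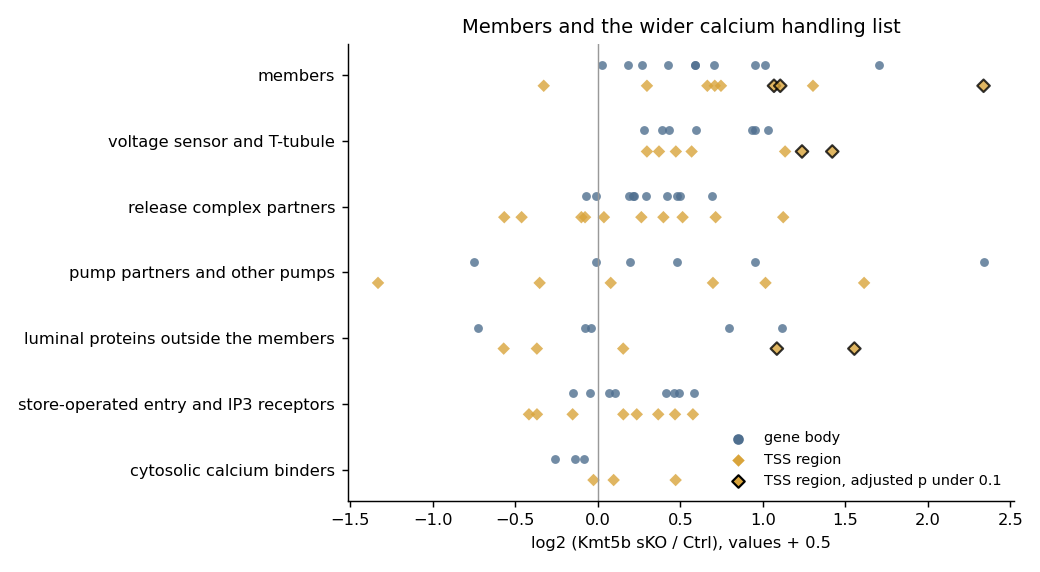
Log2 fold change of Kmt5b sKO over Ctrl, values + 0.5, for the members and for 6 groups of other calcium handling genes, with 1 circle per gene for the gene body and 1 diamond per gene for the TSS region. Black outlines mark an adjusted p under 0.1 in the TSS region, and Ryr3 is left out of the TSS values. On the scale of the reads counted in transcript regions, all voltage sensor and T-tubule genes lie right of 0, and the cytosolic calcium binders lie left of 0 in the gene body.

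The genes outside the members whose gene body values followed the members' mean most closely over the 6 libraries were Pmaip1 (Pearson r = 0.9992), 9530068E07Rik (0.998), Cyb5r3 (0.998), Otog (0.996) and Coro6 (0.996). These are the highest of all genes tested over 6 points that share library and depth, and are given as a description. Pmaip1 had 27.0, 32.6 and 12.3 TPM in Ctrl against 40.3, 36.4 and 73.3 TPM in Kmt5b sKO. Coro6, the highest of them in level, had 141, 152 and 93.3 TPM against 169, 160 and 219 TPM. Both had the lowest value in Ctrl replicate 3 and the highest in Kmt5b sKO replicate 3, like the members' mean by which they were chosen.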

How the data were processed

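PRO-seq libraries of 3 Ctrl and 3 Kmt5b sKO samples, called biological replicates by the study, were analysed; nothing ties them to separate mice, so p-values measure the spread between these libraries. Reads had been trimmed with Trimmomatic 0.39, aligned to GRCm38 with STAR 2.6.1d (1 random position for multi-mapping reads) and deduplicated with Picard 2.18.16. The RPM values of TSS regions and the TPM values of gene bodies were made by the authors from sense-strand reads, for the transcript of each gene with the largest TSS signal, and used as deposited. A random position can split reads between near-identical copies.

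Genes on X and Y, and genes with a mean under 0.5 in either region, were left out (12451 of 14546 were tested). The test was limma 3.58.1 in R 4.3.3 on log2(value + 0.5), with a trend and no covariate besides genotype. A gene was called where the p adjusted over all genes tested (Benjamini-Hochberg) was under 0.1. Fold changes on this scale understate changes of low values. The pausing index was tested as a log2 ratio without pseudocount. A TSS value of at most 3 reads in all libraries of both groups got no fold change. Reads were recovered from the steps between values, rounded to whole reads and tested with edgeR 4.0.16 and DESeq2 1.42.0. The fit to whole reads, within 0.1 of a read, was checked for low values, and in gene bodies only under 2000 nt. The limma steps for the TSS region and the gene body were also tried on simulated data. Annotation was GENCODE on GRCm38 and promoters were from RefSeq; Python 3.11.15, numpy 2.4.6, pandas 2.3.3 and matplotlib 3.10.9 were used.

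The members, the wider list and the marker lists were chosen with earlier results of these data known. Named were all members, the called genes and the highest gene per role of the wider list, the 5 genes most like the members' mean, and marker genes.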

Additional observations from a re-analysis of the deposited data

How the results depend on the processing

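The 3 calls of the TSS region (Ryr1, Casq1 and Casq2) depended on the settings. The count was 3 with either other pseudocount, with median centring, with quantile normalization and with edgeR, and 2 with DESeq2. It was 0 with no filter on low values, 0 with eBayes without a trend and 0 with the replicate block, where 0 genes of the whole table were called, and 1 at an adjusted p under 0.05, and 0 to 3 when single libraries were left out. In the gene body the count of 0 became 1 with median centring (Trdn), 2 with edgeR and 4 with DESeq2, and ran from 0 to 2 when single libraries were left out. The replicate block called 0 members in the gene body and 0 genes in all in both regions. Same-numbered libraries did not deviate together (correlations of -0.03, -0.13 and -0.16 in the TSS region and -0.15, -0.17 and -0.33 in the gene body). With 3 libraries per group this cannot settle whether they were prepared in pairs, and the labels do not say. The count for the pausing index was 0 in every alternative run. The members' medians ran from 0.33 to 0.79 (gene body) and from 0.63 to 1.04 (TSS region) when single libraries were left out.

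Scaling to uniquely mapped reads, with totals from the study, lowered all genes. The members' medians became -0.53 (gene body) and -0.26 (TSS region), still above the median of all genes. In the gene body 3 members were then called, all lower (Jph2, Stac3 and Atp2a2), against 86.7% of all genes. In the TSS region 3 were called too, but Jph1 and Atp2a2 (lower) and Casq1 (higher), against 71.1% of all genes, and Ryr1 and Casq2 were not called. The gene body log2 fold changes were -0.42 for Ryr1, -0.62 for Ryr3, -0.52 for Jph1, -0.86 for Jph2, -0.71 for Stac3, -0.54 for Atp2a1, -0.95 for Atp2a2, -0.11 for Casq2 and -0.12 for Trdn, and those of the TSS region -0.11 for Ryr1, -0.87 for Jph1, -0.51 for Jph2, -0.46 for Stac3, -0.40 for Atp2a1, -1.51 for Atp2a2 and -0.068 for Casq2. Casq1 stayed above 0 in both regions, at 0.60 and 1.22, and so did Trdn in the TSS region, at 0.19.

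The small gene body difference of Ryr3 changed sign, to -0.25 with quantile normalization, -0.01 with edgeR and -0.015 with DESeq2, and ran from -0.19 to 0.14 when single libraries were left out. So did the TSS difference of Atp2a1 (-0.044 to 1.40) and the pausing index differences of Stac3 (-0.030 to 0.72), Atp2a1 (-0.30 to 0.62) and Casq2 (-0.16 to 0.50). The causes were not tested. The TSS regions of Casq1 and Trdn, with as few as 12 reads in a library, are the least precisely counted after Ryr3.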
